A study of Gossypium herbaceum with 12 samples.

Results

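Roots of the cotton Gossypium herbaceum were compared under drought between Vagad, the genotype labelled tolerant, and RAHS-14, the genotype labelled sensitive. The comparison rests on 6 of the 12 arrays of the study, taken by their titles: 3 of droughted Vagad and 3 of droughted RAHS-14 roots. The 6 watered arrays, 3 of each genotype, served as a separate set in which to look at the same genes. Each array was hybridized with RNA of the whole root of plants grown for 4 weeks in pots in a glasshouse, and the soil moisture of the droughted pots was kept under 30%. The labels name no transgene or mutant allele, so the groups are told apart by genotype and by watering. Replicates are labelled biological, and 12 plants were grown, 6 of each genotype. Whole roots were used, so fewer cells of a type and less RNA per cell cannot be told apart in any value given here.

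Water deficit in a root lowers cell turgor and leads to unfolded proteins, reactive oxygen and a change in how carbon and nitrogen are stored. Roots are known to answer with small heat shock proteins, which hold unfolding proteins in solution, and with the larger chaperones HSP70 and HSP90, which refold them. Xyloglucan transferases, expansins and glucanases cut or loosen the wall and let root cells elongate, while starch, proline and asparagine enzymes shift reserves. The Affymetrix Cotton Genome array measures a transcript by a probe set, a group of short probes whose summed signal is its intensity. Probe set names carry the species the sequence came from, such as Ghi for Gossypium hirsutum and Gra for Gossypium raimondii, and the endings _s_at and _x_at mark probes shared by several transcripts, so related genes cannot be told apart there. A genotype difference in the sequence under a probe also changes its intensity and cannot be told apart from a difference in RNA.

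The 3 droughted Vagad arrays did not look alike. Replicates 1 and 2 had a median intensity of 322 and 345, against 60.8 to 74.2 on the other 10 arrays, and control probe sets for transcripts that cotton lacks reached 689 and 702 against at most 15.8 elsewhere. Replicate 3 had ordinary levels, but its actin control gave a 3' to 5' signal ratio of 41.3, against 17.4 to 19.6 on the droughted RAHS-14 arrays and 12.5 to 20.2 on the watered ones. Its ratio for the control ss1 was 8.73 against 3.70 to 4.26 in droughted RAHS-14 and 4.17 to 8.20 on the watered arrays. For ubq11 it was 4.35 against 3.02 to 3.70, within the 1.75 to 4.76 of the watered arrays. A high ratio means that the probes near the 5' end of the transcript gave less signal than those near its 3' end. Replicate 3 correlated with the arrays of other groups at 0.97 to 0.98, replicate 1 at 0.60 to 0.62 and replicate 2 at 0.45 to 0.47, on log2 intensities. Replicate 3 is therefore given by itself throughout, and most weight is laid on probe sets whose 3 Vagad values all lay on one side of the 3 RAHS-14 values. The 5 green tissue markers (Lhcb1, Rubisco activase, photosystem II protein M, photosystem I subunit D and CP12) summed to 957 to 1503 in droughted Vagad and 2919 to 2982 in droughted RAHS-14. All 5 were lower on all 3 Vagad arrays, while another Lhcb1 probe set, not among the markers, was higher on all 3. In the list of 12 plastid and photosynthesis probe sets, 6 were lower on all 3, 2 were higher and 4 overlapped. Of 4 root markers, the nitrate transporter NRT1.5, the potassium channel SKOR and the kinase ARSK1 overlapped between the droughted genotypes, while Meloidogyne-induced cotton 1 did not. The root markers summed to 689 to 2077 in droughted Vagad and 657 to 797 in droughted RAHS-14. These sums include Meloidogyne-induced cotton 1, which was under 16 on the droughted RAHS-14 arrays, so they do not compare root content apart from that gene. The lowest Vagad sum was that of replicate 3, whose NRT1.5 value lay below all 3 RAHS-14 values. How far the raised background of 2 arrays and the 3' to 5' ratio of the other went into the values below was not tested.

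Over 24029 probe sets, limma on the 6 droughted arrays called 0 higher in Vagad (0%) and 0 higher in RAHS-14 (0%) at an adjusted p of 0.05 and 2-fold, and the smallest adjusted p was 0.33. At an unadjusted p of 0.05 the same fit gave 2003 probe sets higher in Vagad (8.34%) and 626 higher in RAHS-14 (2.61%). All 3 Vagad values lay above all 3 RAHS-14 values at 3907 probe sets (16.3%) and below them at 2473 (10.3%). A gap of at least 2-fold between the nearest arrays of the genotypes separated 224 probe sets with Vagad higher (0.932%) and 152 with RAHS-14 higher (0.633%). The counts were 144 and 220 after quantile normalization and 126 and 430 with the arrays scaled to a common median, so the larger direction depended on the scaling. Without Vagad replicate 3 they rose to 7670 and 1965, and limma then called 7120 and 2167, while without replicate 1 or 2 the count toward RAHS-14 was 259 or 272. These 376 probe sets are called separated from here on, and 93 of them have a name, 27 higher in Vagad and 66 higher in RAHS-14. Fitting all 12 arrays at once, so that the watered groups share the estimate of spread, gave 74 (0.308%) and 53 (0.221%) calls, all among the separated probe sets. Replicate 3 alone was 2-fold above all 3 RAHS-14 arrays at 457 probe sets (1.90%) and 2-fold below them at 659 (2.74%). With Vagad replicate 3 alone in a fit of 10 arrays, in which the lone array is taken to vary like the other groups, limma called 472 probe sets higher in Vagad (1.96%) and 560 higher in RAHS-14 (2.33%). Of the separated probe sets, 172 of 224 and 104 of 152 were among those calls, which is a description because the gap also uses replicate 3.

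Replicates 1 and 2 moved with the level of the gene. Where the mean RAHS-14 intensity was under 64, both arrays lay above all 3 RAHS-14 arrays at 82.6% of 11740 probe sets, and where it was 2048 or over, both lay below at 78.4% of 2035. The median log2 difference of these arrays from RAHS-14 went from 2.67 at the lowest levels to -1.23 at the highest, whereas that of replicate 3 was 0.00 and 0.05. The 2 directions of separation sit on opposite sides of this shift. Of the 224 probe sets separated toward Vagad, 168 had a RAHS-14 level under 64 and 10 a level of 512 or over. Of the 152 separated toward RAHS-14, 37 had a level under 512 and 60 a level of 2048 or over. Only for those 10 and 37 probe sets did replicates 1 and 2 go against the general direction of their level, and 2 and 12 of them have a name.

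**Figure D1:**
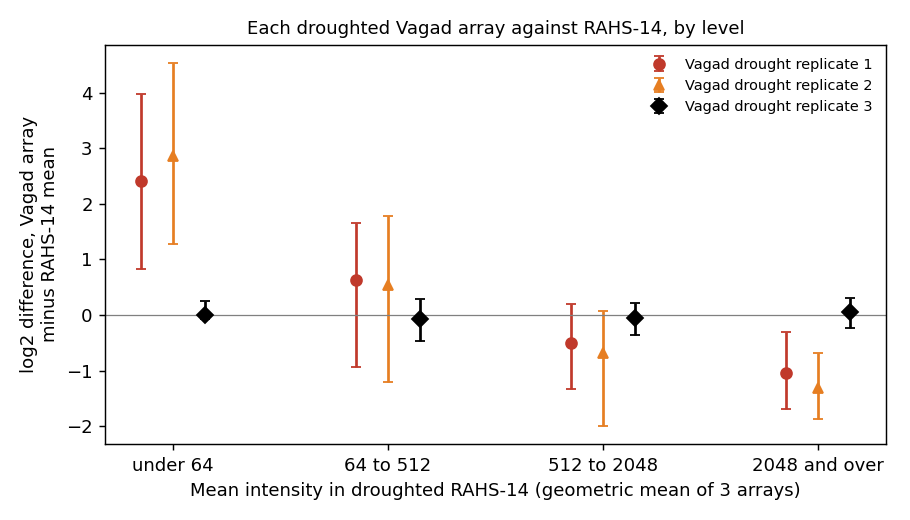
Log2 difference of each droughted Vagad array from the mean of the 3 droughted RAHS-14 arrays (y axis) in 4 ranges of RAHS-14 intensity (x axis); points are medians over probe sets and bars run from the first to the third quartile. Replicates 1 and 2 lie above 0 at low levels (medians 2.42 and 2.86) and below 0 at the highest (-1.04 and -1.31), while replicate 3 stays within 0.07 of 0.

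The genes that were higher in droughted Vagad included Meloidogyne-induced cotton 1, which had the widest gap of the 224, and several enzymes that loosen the cell wall. Meloidogyne-induced cotton 1 (MIC1), a root gene named for its response to root-knot nematodes, gave 895, 1197 and 347 in Vagad replicates 1, 2 and 3, and all 3 RAHS-14 arrays were under the floor of 16 to which low values were raised. The gap was 21.7-fold against that floor, and replicate 3 alone was 4.44 higher on the log2 scale. No spread within the droughted groups was measured there, as replicate 3 is a single array and all RAHS-14 values were set to the floor. In watered roots the order was the other way: Vagad gave 1790, 1560 and 1525 and RAHS-14 3939, 4404 and 3875, a log2 difference of -1.33 (SE 0.09, adjusted p = 0.0060). RAHS-14 thus had the highest level of the 4 groups when watered and the lowest under drought.

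XTR4, a xyloglucan endotransglycosylase that cuts and rejoins the xyloglucan tethers of the wall, gave 1042, 1205 and 261 in droughted Vagad and 15.1, 10.9 and 22.6 in droughted RAHS-14. Its gap of 11.5-fold was the widest but one among named probe sets, and replicate 3 alone was 3.86 higher on the log2 scale (SE 0.46, adjusted p = 0.0026). Watered roots had the same order, with 147, 162 and 166 in Vagad against 15.7, 30.4 and 38.5 in RAHS-14 (log2 difference 2.57, adjusted p = 0.034). An endo-1,4-beta-glucanase, which cuts beta-glucan chains of the wall, gave 1377, 1071 and 690 against 269, 214 and 242, with adjusted p = 0.0016 for replicate 3. The alpha-expansin EXPA6, which loosens walls without cutting them, gave 806, 1735 and 214 against 74.9, 91.9 and 64.3 (adjusted p = 0.018). The groups did not overlap for either gene. Under watering the glucanase (log2 difference -0.36, adjusted p = 0.17) and the expansin (-0.36, adjusted p = 0.45) did not pass the test.

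A further xyloglucan transferase, EXGT-A4 gave 373, 523 and 151 in droughted Vagad against 63.5, 69.8 and 56.4 in RAHS-14, and its replicate 3 value missed the threshold (adjusted p = 0.071). Of the 32 probe sets of the cell wall list, all 3 Vagad values were above RAHS-14 at 14 and below at 7, and 5 were separated toward Vagad against 0 toward RAHS-14. With replicate 3 alone 7 were called higher in Vagad and 1 higher in RAHS-14, and the median log2 difference of the list was 0.70, where the median over all probe sets was 0.00. Under watering the median was -0.32, with 3 calls toward Vagad and 6 toward RAHS-14. The names come from gene lists that the study chose on these samples, 17 of the 32 from the list higher in droughted Vagad, so the direction of these counts is not independent evidence. The expansin-like gene EXLB1 is named here by the Arabidopsis locus the paper prints, while the paper describes this probe set as a uridylyltransferase. It was one of the 7 below, with 61.5, 85.6 and 206 in droughted Vagad and 400, 381 and 339 in droughted RAHS-14. In watered roots it gave 2974, 2574 and 2818 in Vagad against 108, 71.3 and 98.8 in RAHS-14, so its order turned over between the conditions. Outside the list, a putative pectinesterase and a putative glycine-rich protein, which the paper sets among cell wall genes, were separated toward RAHS-14. Their replicate 3 log2 differences were -5.40 and -1.87, and both were added after their values were seen.

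**Figure D2:**
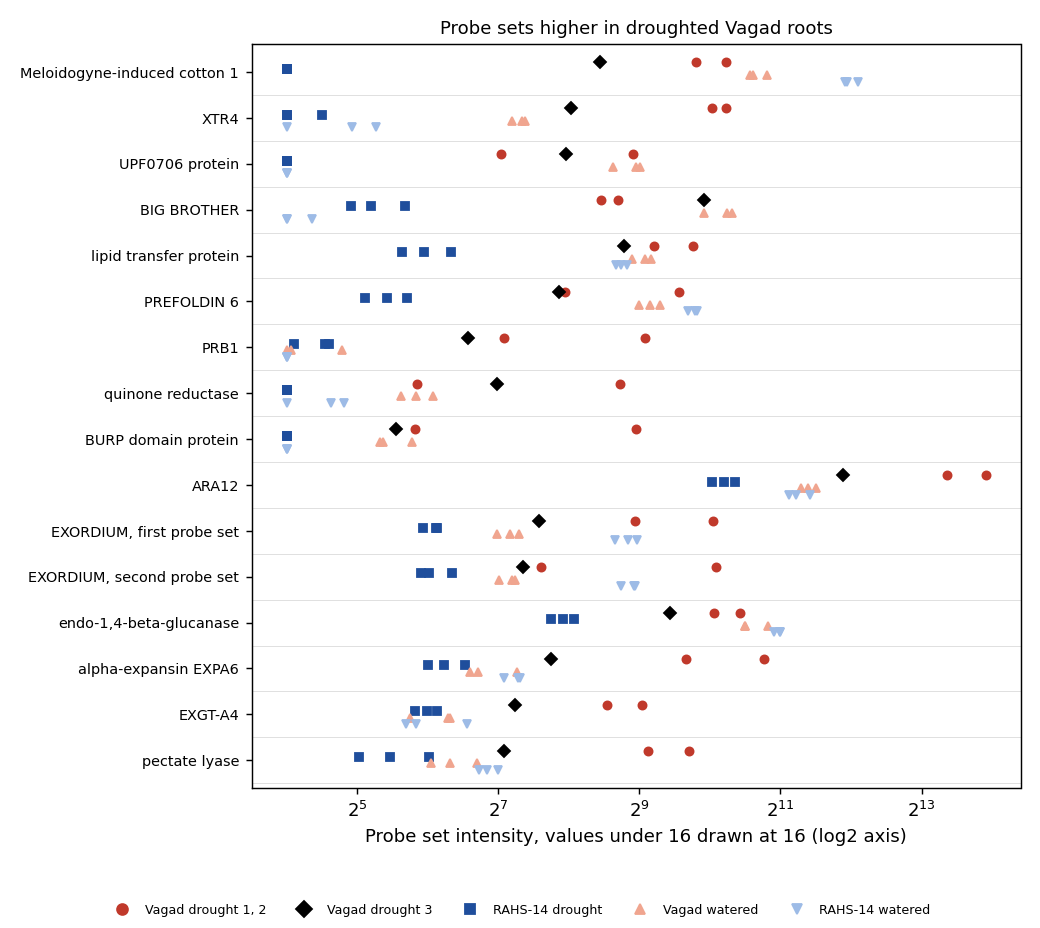
Intensity of 16 probe sets separated toward droughted Vagad on a log2 axis, one point per array, with the groups in separate colours and Vagad replicate 3 as black diamonds; values under 16 are drawn at 16. In every row the 3 droughted Vagad points lie to the right of the 3 droughted RAHS-14 squares, and the watered points show which of the differences were also present without drought.

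Several differences toward Vagad were also present in watered roots. BIG BROTHER, a ubiquitin ligase that limits organ size in Arabidopsis, gave 352, 415 and 968 in droughted Vagad and 36.8, 51.2 and 30.1 in droughted RAHS-14. Replicate 3 was 25.2-fold higher (log2 difference 4.65, SE 0.31, adjusted p = 0.00014). Watered roots gave 965, 1210 and 1276 against 9.99, 20.6 and 12.5 (adjusted p = 0.00072), so Vagad was higher in both conditions. A UPF0706 family protein, of a group of unknown function, gave 132, 483 and 249 in droughted Vagad and was under 16 on all 6 RAHS-14 arrays, droughted and watered. A BURP domain protein, of a plant-specific secreted family, gave 56.3, 496 and 47.0 and was again under 16 on every RAHS-14 array. A metallothionein-like protein, which binds metal ions, gave 1379, 1134 and 1106 against 516, 401 and 166, although neither replicate 3 (adjusted p = 0.14) nor the watered genotypes (log2 difference 1.66, adjusted p = 0.075) passed the test. A probe set with no name in the sources used here, whose gap of 8.48-fold was the widest toward Vagad among the unnamed ones, gave 200, 191 and 299 against 18.6, 22.6 and 19.6, and watered Vagad was higher as well (log2 difference 3.65, adjusted p = 0.0082).

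Other differences toward Vagad appeared under drought and were small or turned round in watered roots. A non-specific lipid transfer protein, of a family that carries lipids to the cell surface, gave 593, 865 and 440 in droughted Vagad and 62.0, 80.5 and 49.5 in droughted RAHS-14. The watered values were 576, 474 and 543 against 429, 455 and 409, and the difference between the conditions passed the interaction test over the 10 arrays (2.51 on the log2 scale, adjusted p = 0.0030). Its Vagad level under drought was therefore close to the watered level, and the RAHS-14 level was the one apart. PREFOLDIN 6, a chaperone subunit that hands new actin and tubulin to their folding complex, gave 247, 753 and 232 against 52.0, 34.7 and 43.0. Watered roots gave 626, 508 and 567 in Vagad against 901, 884 and 826 in RAHS-14, and the interaction was 3.07 (adjusted p = 0.00055). ARA12, a subtilisin-like protease, gave 15367, 10557 and 3798 against 1047, 1182 and 1308, with an interaction of 1.55 (adjusted p = 0.0033). ARA12 is one of the probe sets that moved against the level shift of replicates 1 and 2, since its RAHS-14 level was over 512.

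EXORDIUM, a growth-promoting protein of the brassinosteroid response in Arabidopsis, had 2 separated probe sets, and the second was added after its values were seen. The first gave 1053, 489 and 191 in droughted Vagad and 69.9, 61.0 and 69.6 in droughted RAHS-14, against 143, 157 and 126 and 498, 456 and 402 in the watered genotypes. The second gave 195, 1088 and 163 against 60.1, 64.7 and 81.0, and watered 151, 129 and 146 against 487, 489 and 428. Both were called higher in RAHS-14 when watered, and both interactions passed the test (3.19 and 2.98 on the log2 scale, adjusted p = 9.2e-05 and 0.00023). PRB1, a basic pathogenesis-related protein, gave 540, 135 and 94.8 against 23.3, 24.3 and 17.2, and its watered genotypes did not pass the test (adjusted p = 0.66). A quinone reductase, which detoxifies quinones, gave 425, 57.4 and 126 against values under 16 on all 3 RAHS-14 arrays.

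Growth regulators as a list were mixed. Of 16 probe sets for auxin and growth regulation, all 3 Vagad values were above RAHS-14 at 7 and below at 4. A SAUR protein, of the small auxin-induced family, gave 802, 848 and 112 against 45.6, 33.9 and 27.5, with replicate 3 past the threshold (adjusted p = 0.0057). The list held 3 calls toward Vagad and 4 toward RAHS-14 for replicate 3, and 0 toward Vagad and 8 toward RAHS-14 under watering. UVI4, a regulator of the cell cycle in Arabidopsis, gave 139, 192 and 50.7 against 20.4, 15.8 and 16.0 (adjusted p = 0.080). A second unnamed probe set, with a gap of 6.94-fold, gave 869, 730 and 147 against 16.1, 20.4 and 21.2, and watered roots overlapped.

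Several small heat shock proteins were higher in droughted RAHS-14. HSP21, the small heat shock protein of the plastid, gave 8952, 9295 and 9332 in droughted RAHS-14 and 1053, 52.4 and 1251 in droughted Vagad. Replicate 3 was 7.35-fold lower (log2 difference -2.88, SE 0.35, adjusted p = 0.0028). The watered levels were 115, 143 and 191 in RAHS-14 and 78.6, 45.8 and 52.2 in Vagad, so the level under drought was above the watered one in RAHS-14 and on 2 of the 3 Vagad arrays. HSP22.0, of the endomembrane class, gave 3233, 3184 and 3266 against 747, 45.8 and 721 in Vagad (replicate 3 log2 difference -2.16, adjusted p = 0.00058). The cytosolic HSP17.6B was measured by 2 probe sets, of which the first gave 2481, 2473 and 2487 against 627, 741 and 839, and the second gave 9466, 8799 and 9089 against 2199, 2848 and 3333. Here replicates 1, 2 and 3 of Vagad were close together, and replicate 3 passed the test for both (adjusted p = 0.00088 and 0.010).

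Replicates 1 and 2 both lay below RAHS-14 at 78.4% of all probe sets with a level of 2048 or over. The first HSP21, the HSP22.0 and both HSP17.6B probe sets lie in that range. Of the 9 small heat shock protein probe sets, all 3 Vagad values were below RAHS-14 at 6 (66.7%), against 38.8% of all named probe sets. They were above at 0, and 5 probe sets were separated toward RAHS-14. With replicate 3 alone 5 were called higher in RAHS-14 and 0 higher in Vagad, and the median log2 difference was -1.45. Those counts carry the choice of the study, whose list of genes higher in droughted RAHS-14 supplied 8 of the 9 names. In watered roots 3 of the 9 were called higher in RAHS-14 and the median was -0.88. For HSP22.0 and both HSP17.6B probe sets the watered genotypes differed as well (log2 differences -2.37, -1.54 and -1.25), and the interactions did not pass the test at 0.21, -0.03 and -0.20 (adjusted p = 0.73, 1.0 and 0.80). The other HSP21 probe set, the mitochondrial HSP23.6-MITO and HSP17.8 overlapped between the genotypes, each with Vagad replicate 1 or 2 inside or above the RAHS-14 range and replicate 3 below it.

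The larger chaperones were divided. HSP70 gave 2756, 2773 and 2735 in droughted RAHS-14 against 339, 883 and 769 in droughted Vagad (replicate 3 log2 difference -1.84, adjusted p = 0.0057). The plastid chaperonin subunit CPN60B gave 767, 826 and 680 against 94.0, 243 and 351, and watered roots did not pass the test (log2 difference 0.20, adjusted p = 0.30). The J-domain co-chaperone J8 gave 5475, 5312 and 5310 against 1245, 591 and 2453, with adjusted p = 0.053. The heat shock factor HSFA2, a transcription factor that switches on heat shock genes, gave 643, 580 and 632 against 462, 996 and 274, so its groups overlapped, while replicate 3 was lower (log2 difference -1.17, adjusted p = 0.0041). HSC70-1, a cytosolic HSP70 made without stress, went the other way, with 197, 195 and 244 against 905, 267 and 693 (replicate 3 log2 difference 1.72, adjusted p = 0.0027); both were added after their values were seen. Over the 15 probe sets of this list, all 3 Vagad values were below at 6, about the share over all named probe sets (38.8%). They were above at 3, where 123 of all 677 named probe sets were above, so the split of the list was close to that of named probe sets in general. PREFOLDIN 6 was the one separated toward Vagad. Of the 15 names, 11 came from the study's list of genes higher in droughted RAHS-14.

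**Figure D3:**
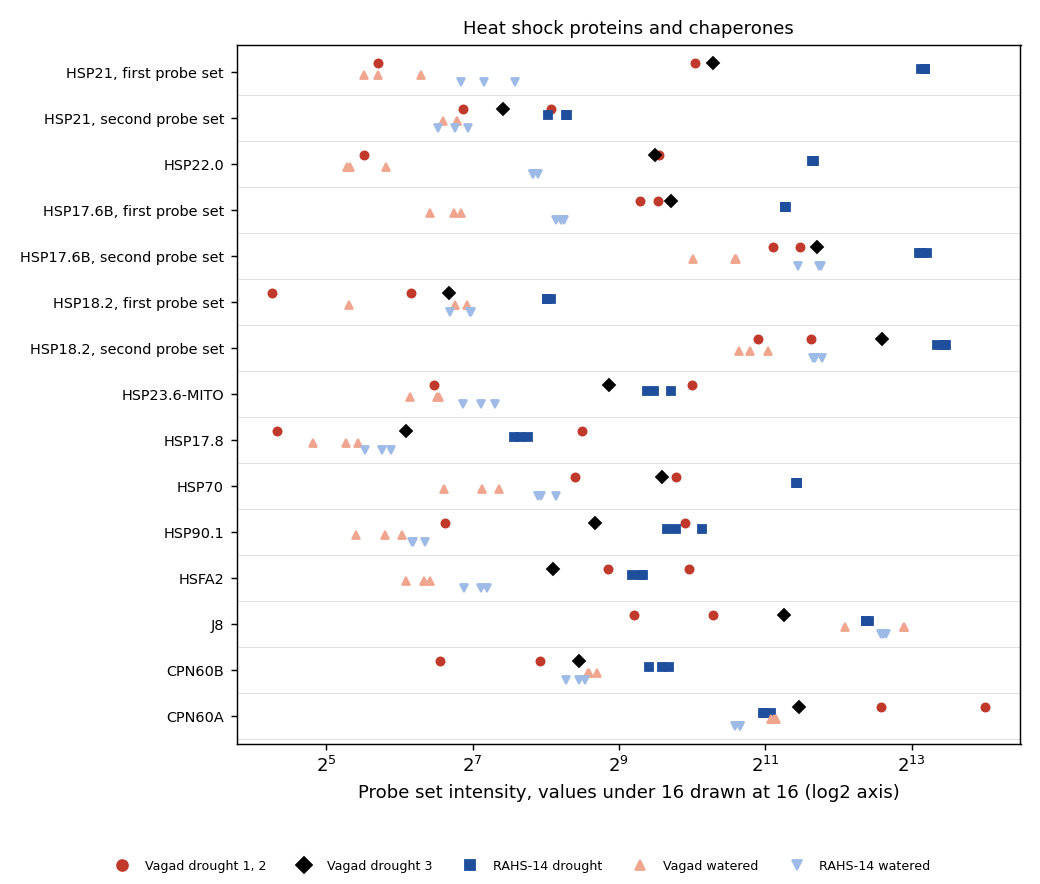
Intensity of 15 heat shock protein and chaperone probe sets on a log2 axis, one point per array, in the colours of the 5 sets of arrays given below the axis; values under 16 are drawn at 16. The droughted RAHS-14 squares of the first HSP21 probe set lie between 8952 and 9332. The black diamond of Vagad replicate 3 lies to their left there, but not in the row of CPN60A. Replicate 3 was not lower throughout. Over the full list of 15 larger chaperones, drawn here or not, it was 2-fold above the RAHS-14 values at 2 probe sets and 2-fold below them at 4.

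Several transcripts of thiamine synthesis enzymes were lower in Vagad in both conditions. THIC, the enzyme that makes the pyrimidine part of vitamin B1, was measured by 3 separated probe sets, all of the _s_at kind, so related THIC copies cannot be told apart. The first gave 4283, 4524 and 4242 in droughted RAHS-14 and 604, 582 and 546 in droughted Vagad, so the 3 Vagad arrays lay within a narrow range, unlike at most other genes. Replicate 3 was 7.96-fold lower (log2 difference -2.99, SE 0.16, adjusted p = 4e-05). The second gave 505, 557 and 530 against 70.5, 94.1 and 123, and the third gave 3929, 3789 and 3539 against 1649, 291 and 1374. THI1, which makes the thiazole part, gave 3829, 4144 and 4341 against 850, 908 and 1755 (replicate 3 log2 difference -1.22, adjusted p = 0.012). All 4 were called higher in RAHS-14 when watered as well, with log2 differences of -2.07, -1.11, -1.42 and -1.39. For the first and the third THIC probe set, replicate 1 was the highest of the watered Vagad arrays, by 0.36 and 0.47 on the log2 scale. Over the list it lay below both others at 4 of 8, where 27.2% of all probe sets did so, and above both at 2. Of the 8 probe sets for thiamine and pantothenate synthesis, 5 were called lower in replicate 3 and 7 were called higher in RAHS-14 under watering.

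One watered array moved with the probe sets that were higher in RAHS-14, namely replicate 1 of watered Vagad. It lay below both other watered Vagad arrays at 123 of the 152 probe sets separated toward RAHS-14 (80.9%), at 43 of the 224 separated toward Vagad (19.2%) and at 27.2% of all probe sets. At 84 of the 152 (55.3%) it was lower than the mean of the other 2 by at least 1.5-fold, against 7.15% of all. Across 12289 probe sets with a RAHS-14 level of 64 or over, its log2 deviation from those 2 arrays and the log2 difference of droughted Vagad replicate 3 from RAHS-14 had a Pearson correlation of 0.42 and a Spearman correlation of 0.41. Each axis rests on 1 Vagad array and no array is on both, and probe sets are not independent replicates. The 3 arrays compared in the first axis are all labelled watered Vagad, so by their labels they share genotype and watering. What set replicate 1 apart from the other 2 was not tested. Its 3' to 5' ratio was 1.75 for ubq11, where the other watered arrays had 3.91 to 4.76, 20.2 for actin, where they had 12.5 to 20.0, and 5.86 for ss1, inside their 4.17 to 8.20. The part of this pattern in the results was not tested, and its values are given beside the genes it moves with. At 29 of the 152 probe sets, 17 of them named, watered Vagad replicate 1 was not below the other 2.

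Among those 29, several genes were low in Vagad in both conditions. A disease resistance protein of the CC-NBS-LRR class, a type of receptor that senses pathogen effectors, gave 240, 240 and 240 in droughted RAHS-14 against 10.9, 30.1 and 9.58 in droughted Vagad. Replicate 3, raised to the floor of 16, was lower by a log2 difference of -3.91 (adjusted p = 2.7e-05), and the watered values were 248, 220 and 249 against 88.9, 71.3 and 106 (adjusted p = 0.021). An epoxide hydrolase, which opens reactive epoxides to diols, gave 222, 214 and 180 against 31.7, 41.7 and 10.7, and watered 334, 377 and 351 against 18.0, 18.1 and 1.08. Its log2 difference was -3.68 in replicate 3 (adjusted p = 4.5e-06) and -4.35 under watering (adjusted p = 0.00028). The receptor-like kinase RLK1 gave 700, 619 and 635 against 40.7, 144 and 115, and 599, 655 and 669 against 87.8, 99.6 and 76.0 when watered. A reverse transcriptase of a retroelement gave 1254, 1197 and 1366 against 382, 76.0 and 23.9, and watered 1347, 1282 and 1196 against 32.9, 32.4 and 27.8. The interactions of these 4 were -2.46, 0.67, 0.38 and -0.37, with adjusted p of 0.0010, 0.049, 0.28 and 0.19.

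A senescence-associated protein gave 2277, 2044 and 2184 in droughted RAHS-14 against 86.0, 550 and 22.9 in droughted Vagad, and 1768, 1881 and 1834 against 19.6, 54.4 and 30.9 in watered roots. Replicate 3 was 94.4-fold lower (log2 difference -6.56, SE 0.48, adjusted p = 0.00021). Replicate 1 was the lowest of the watered Vagad arrays here, by 1.07 on the log2 scale, beside a watered genotype difference of -5.83. The list of 5 senescence-associated probe sets had 4 called lower in replicate 3 and 0 higher. SAG29, a sugar transporter of ageing tissue, gave 33.1 in replicate 3 against 449, 436 and 511 in RAHS-14, while replicates 1 and 2 gave 627 and 1002. Its groups therefore overlapped, and its watered order was the reverse (log2 difference 2.39, adjusted p = 0.0040).

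Chitinase and lectin genes crossed over between the conditions. An acidic endochitinase, which cuts fungal wall chitin, gave 1361, 1466 and 1481 in droughted RAHS-14 against 65.9, 65.1 and 432 in droughted Vagad. Watered roots averaged 1651 ± 63.3 (SD, n = 3) in RAHS-14 against 4187, 4373 and 4359 in Vagad, so the watered genotypes differed the other way. The interaction over 10 arrays was -3.12 (adjusted p = 4.6e-07). A mannose-binding lectin, of a sugar-binding defence family, gave 2441, 2622 and 2316 against 336, 77.7 and 783, and watered 422, 421 and 503 against 2338, 2196 and 2226. Its interaction was -3.98 (adjusted p = 4.1e-06). In RAHS-14 the chitinase stood at about the same level in both conditions, whereas the lectin was at 422 to 503 when watered and 2316 to 2622 under drought. Of the 11 defence probe sets, all 3 Vagad values were above RAHS-14 at 4 (36.4%) and below at 4 (36.4%) under drought. When watered, 7 were called higher in Vagad. An unnamed probe set with a gap of 8.41-fold, the widest toward RAHS-14, also crossed over, with 2052, 1860 and 1724 against 104, 15.4 and 205 under drought and 456, 623 and 617 against 1309, 2139 and 2117 when watered.

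Some of the widest gaps toward RAHS-14 were at highly expressed genes of metabolism and translation. A cyclopropane fatty acid synthase, which adds the ring to the cyclic fatty acids typical of cotton and its relatives, gave 8489, 8315 and 8608 against 399, 1056 and 1024. Replicate 3 was 8.28-fold lower (adjusted p = 8e-05) and the interaction was -2.27 (adjusted p = 0.0012). Its watered values were 7005, 7131 and 7016 against 3258, 4516 and 4676, a difference that missed the threshold (adjusted p = 0.075), and replicate 1 was the lowest. The ribosomal protein gene RPL8 gave 9574, 9854 and 9525 against 609, 1441 and 749, and watered 7087, 7465 and 7684 against 986, 1731 and 1671 (adjusted p = 0.017). A cytochrome c biogenesis protein, for haem attachment in mitochondria, gave 581, 524 and 522 against 25.2, 24.2 and 105. Replicate 3 missed the threshold there (adjusted p = 0.058), and watered Vagad replicate 1 gave 112 beside 380 and 374. An unnamed probe set with a gap of 4.91-fold gave 1340, 1114 and 1836 against 220, 78.1 and 227.

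Ribosomal proteins had droughted Vagad below RAHS-14 at most probe sets, and they are also the list in which watered Vagad replicate 1 was most often low. Of 30 ribosomal protein and translation factor probe sets, all 3 Vagad values were below RAHS-14 at 24 (80.0%), against 38.8% of all named probe sets. They were above at 1, and 4 probe sets were separated toward RAHS-14. Replicates 1 and 2 both lay below RAHS-14 at 78.4% of all probe sets with a level of 2048 or over, where RPS26, RPL35a and RPL8 lie. How far that shift went into the count was not tested. Replicate 3 alone was 2-fold below all 3 RAHS-14 values at 7 of the 30. The median log2 difference of replicate 3 was -0.72, and 28 of the 30 came from the study's list of genes higher in droughted RAHS-14. Watered Vagad replicate 1 lay below both other watered Vagad arrays at 23 of the 30 (76.7%), by a median log2 deviation of -0.39 over the list. RPS26, of the small subunit, shows this: droughted Vagad gave 2532, 1253 and 2817 against 8649, 8365 and 7016, and watered Vagad gave 2274 beside 7799 and 8070. RPL35a gave 1208, 1442 and 2601 against 6466, 6714 and 6453, and watered Vagad 4630 beside 6875 and 7082. RPL37 gave 111, 71.3 and 206 against 752, 667 and 756, with replicate 3 at adjusted p = 0.047. These 3 and RPL8 are _x_at probe sets, in which related ribosomal genes cannot be told apart.

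The ubiquitin and proteasome list was mixed. Of its 21 probe sets, all 3 Vagad values were below at 8 (38.1%), about the share over all 677 named probe sets (38.8%), and above at 5, with 7 called lower in replicate 3 and only BIG BROTHER called higher. In watered Vagad, replicate 1 lay below the other 2 at 14 of the 21 (66.7%). The proteasome lid subunit RPN5A gave 1194, 1204 and 1295 against 24.3, 73.4 and 457. EBF1, the F-box protein that removes the ethylene factor EIN3, gave 1002, 905 and 854 against 15.2, 23.9 and 336 (replicate 3 log2 difference -1.45, adjusted p = 0.00057). The watered Vagad arrays gave 831, 901 and 847 for EBF1, and its interaction was -2.13 (adjusted p = 0.00024).

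**Figure D4:**
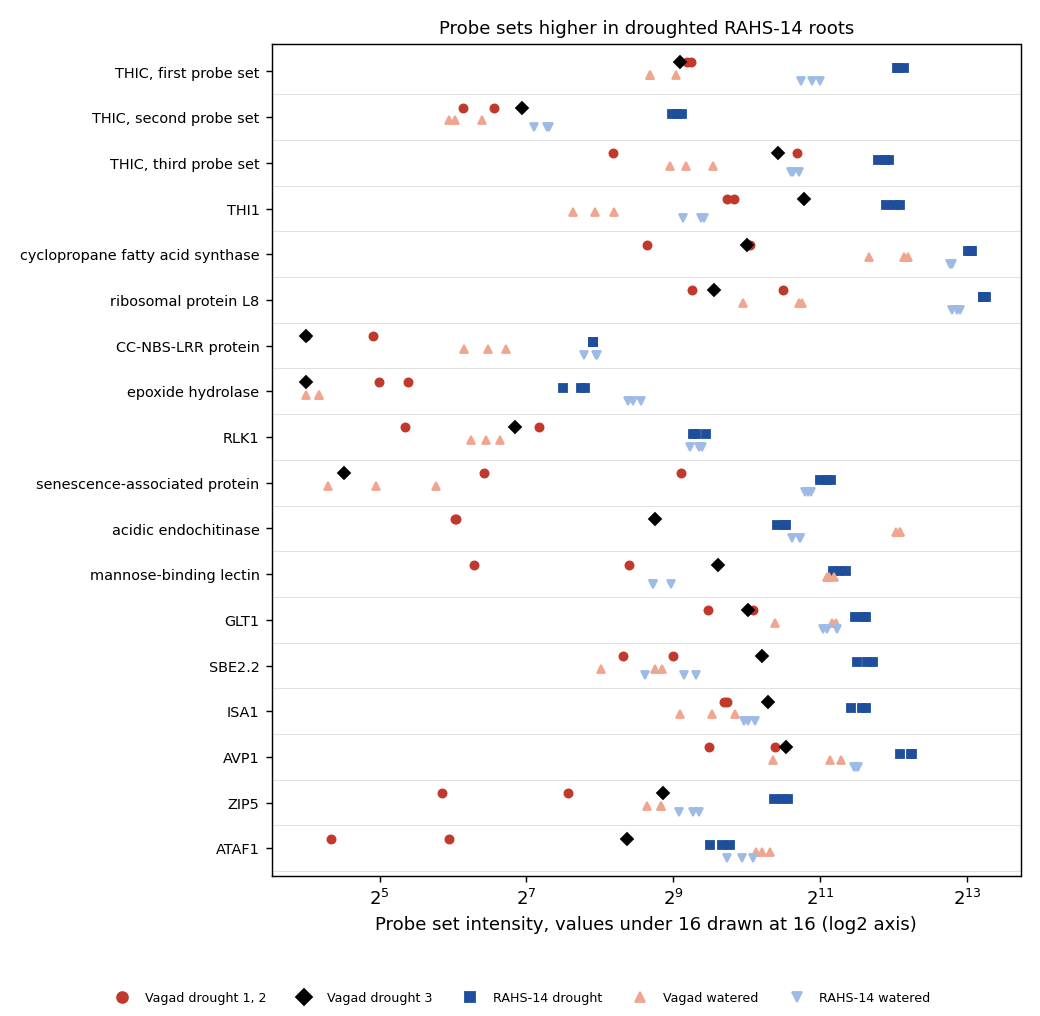
Intensity of 18 probe sets separated toward droughted RAHS-14 on a log2 axis, one point per array, with the same 5 sets of arrays; values under 16 are drawn at 16. The droughted RAHS-14 squares of RPL8 lie at 9525 to 9854 and those of epoxide hydrolase at 180 to 222, and in every row all 3 droughted Vagad points lie to the left of the squares.

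Transcripts of starch enzymes were mostly lower in droughted Vagad. Of the 14 starch and sucrose probe sets, all 3 Vagad values were below RAHS-14 at 10 (71.4%), against 38.8% of all named probe sets, and above at 0. The median log2 difference of replicate 3 was -1.13, and 0 of the 14 were called under watering. Replicates 1 and 2 both lay below RAHS-14 at 78.4% of all probe sets with a level of 2048 or over, a range that holds most members named here. The starch branching enzyme SBE2.2 gave 2892, 3183 and 3363 against 509, 318 and 1182 (replicate 3 adjusted p = 0.055). The debranching enzyme isoamylase 1 (ISA1) gave 3149, 3048 and 2752 against 824, 850 and 1255 (adjusted p = 0.022). DPE2, which uses the maltose from starch breakdown, gave 2277, 2021 and 1857 against 745, 329 and 868 (adjusted p = 0.036). APL3, the large subunit of the enzyme that makes ADP-glucose for starch, gave 2201, 2062 and 2257 against 59.1, 1040 and 472, and its gap fell just short of 2-fold. APL3 had the clearest difference between the conditions, with an interaction of -1.88 (adjusted p = 0.00039). In watered Vagad, replicate 1 lay below the other 2 at 9 of the 14 (64.3%), and 13 of the 14 came from the study's list of genes higher in droughted RAHS-14.

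Nitrogen and ion genes were divided. Of 8 probe sets for amino acid, GABA and proline enzymes, all 3 Vagad values were below RAHS-14 at 5 and above at 2, and with replicate 3 alone 2 were called lower and 1 higher. The one called higher was pyrroline-5-carboxylate reductase, the last enzyme of proline synthesis, added after its values were seen, which gave 20.9, 652 and 44.7 in Vagad against values under 16 on all 3 RAHS-14 arrays (replicate 3 log2 difference 1.48, adjusted p = 0.0035). Glutamate synthase GLT1 gave 2853, 3153 and 3071 against 713, 1082 and 1033, with watered Vagad replicate 1 at 1339 beside 2291 and 2379. Asparagine synthetase ASN1 gave 3447, 3301 and 3019 against 1027, 782 and 1416, and there the watered Vagad arrays gave 1878, 2036 and 1962. The interaction of ASN1 was -1.50 (adjusted p = 0.00053). For the proline synthesis enzyme P5CS2, all 3 Vagad values were below RAHS-14, and replicate 3, at 552 against 867, 828 and 1115, missed the threshold (adjusted p = 0.056). The proton-pumping pyrophosphatase AVP1, which energizes the vacuole, gave 4349, 4840 and 4892 against 715, 1335 and 1485 (adjusted p = 0.018), with watered Vagad at 1316, 2243 and 2502. The zinc transporter ZIP5 gave 1327, 1435 and 1510 against 57.7, 190 and 466, with an interaction of -1.14 (adjusted p = 0.0054). Of the 26 transporter probe sets, all 3 Vagad values were below at 7 and above at 4, 9 were called lower in replicate 3 and 0 higher, and 15 overlapped once replicates 1 and 2 were counted. NRT1.5, which loads nitrate into the xylem, was among the overlapping ones: replicate 3 gave 50.6 against 175, 164 and 196 in RAHS-14, and replicates 1 and 2 gave 212 and 123.

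Several flavonoid synthesis genes were higher in watered Vagad, and under drought few differed by 2-fold in replicate 3. Of 14 phenylpropanoid and flavonoid probe sets, all 3 droughted Vagad values were below RAHS-14 at 13 (92.9%), against 38.8% of all named probe sets. They were above at 1, and 0 were separated by 2-fold. Replicates 1 and 2 both lay below RAHS-14 at 50.8% of all probe sets with a level of 512 to 2048. At 2048 or over the share was 78.4%. Replicate 3 alone was 2-fold below all 3 RAHS-14 values at 2 of the 14 and 2-fold above them at 0. The median log2 difference was -0.39 for replicate 3 and 0.92 in watered roots, where 6 were called higher in Vagad and 0 higher in RAHS-14. Chalcone synthase, the first enzyme of the flavonoid branch, gave 2213, 2309 and 2311 against 1339, 1294 and 1231 at its first probe set, and watered 622, 519 and 557 against 1750, 1526 and 1551. Its interaction was -2.40 (adjusted p = 6.2e-05). At its second probe set the interaction was -1.52 (adjusted p = 0.0029), and at flavonoid 3'-hydroxylase it was -1.04 (adjusted p = 0.00041). The watered Vagad replicate 1 was above the other 2 at 9 of the 14 probe sets. Of the 14 names, 11 came from the study's list of genes higher in droughted RAHS-14.

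Of the transcription factors, 1 probe set was separated. Of 14 WRKY, NAC and MYB probe sets, all 3 Vagad values were below at 3 (21.4%, against 38.8% of all named probe sets) and above at 0. ATAF1, a stress-responsive NAC factor, was the one separated. With replicate 3 alone 5 of the 14 were called lower and 1 higher. ATAF1 gave 809, 871 and 725 in droughted RAHS-14 against 61.7, 20.2 and 330 in Vagad, and watered roots did not pass the test (adjusted p = 0.24). The AP2/ERF family, which holds the DREB factors that bind drought elements in promoters, had 14 probe sets. Of these, 5 were above (35.7%), 1 below (7.1%) and 0 separated. A dehydration-responsive element-binding protein gave 76.7, 223 and 152 against 61.2, 61.5 and 55.5, with replicate 3 at adjusted p = 0.0062, and was higher in watered Vagad as well (adjusted p = 0.0094). Antioxidant and detoxification genes had 3 of 19 probe sets above (15.8%) and 5 below (26.3%). Replicate 3 alone was 2-fold above all 3 RAHS-14 values at 2 of them and 2-fold below at 2.

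The green tissue markers were low in Vagad, while the wider list of plastid genes was mixed. Lhcb1, the light-harvesting protein of photosystem II, gave 248, 162 and 249 in droughted RAHS-14 against 23.9, 45.7 and 70.8 in droughted Vagad, and 1730, 1576 and 1798 against 756, 710 and 723 when watered. Photosystem I subunit D gave 802, 816 and 812 against 342, 135 and 383. Both had replicate 3 past the threshold (adjusted p = 0.0062 and 0.00058). Another Lhcb1 probe set was separated the other way at low levels, with 69.5, 67.3 and 35.2 in Vagad and under 16 in all RAHS-14 arrays. Of the 12 plastid and photosynthesis probe sets, all 3 Vagad values were below at 6 and above at 2.

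The watered roots share no array with the droughted comparison and give a test of their own. Of the 224 probe sets separated toward Vagad under drought, 17 (7.59%) were called higher in watered Vagad, where 0.807% of all probe sets were, and 6 (2.68%) were called higher in watered RAHS-14. Of the 152 separated toward RAHS-14, 26 (17.1%) were called higher in watered RAHS-14, where 0.982% of all probe sets were, and 4 (2.63%) were called higher in watered Vagad. The 17 became 10 without watered RAHS-14 replicate 3 and 11 without watered replicate 2 of either genotype, and the 26 became 14, 14 and 15 without watered RAHS-14 replicate 1, 2 or 3. Watered Vagad replicate 1 was not below the other 2 at 15 of those 26 and at 12 of the 122 with no watered call. No call was made under watering at 201 and 122 of the separated probe sets, which does not show that the watered genotypes were alike there. Seen from the other side, 17 of the 194 probe sets called higher in watered Vagad and 26 of the 236 called higher in watered RAHS-14 were separated in the same direction under drought. Replicate 3 of droughted Vagad was on the same side as the watered call at 58.8% and 65.3% of them, where 41.6% and 42.8% of all probe sets were on that side.

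**Figure D5:**
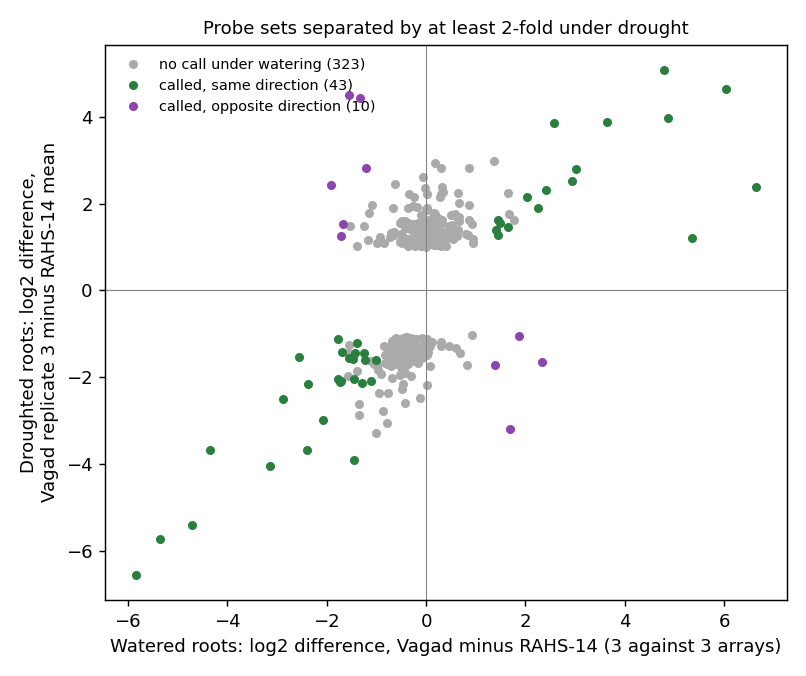
Each point is one of the 376 probe sets separated by at least 2-fold under drought; the x axis is the log2 difference between the watered genotypes (3 against 3 arrays) and the y axis that of droughted Vagad replicate 3 from the droughted RAHS-14 mean. Green points (43) were called in the same direction under watering, purple points (10) in the opposite one, and grey points (323) were not called.

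Whether a genotype difference itself changed with drought was tested by the interaction term, which compares the droughted with the watered genotype difference and uses the droughted arrays that chose the separated probe sets. Over all 12 arrays 2 probe sets (0.00832%) shifted toward Vagad and 5 (0.0208%) toward RAHS-14, and over the 10 arrays without Vagad replicates 1 and 2 there were 627 (2.61%) and 436 (1.81%). Of the 224 probe sets separated toward Vagad, 109 shifted toward Vagad and 2 toward RAHS-14 over the 10 arrays. Of the 152 separated toward RAHS-14, 31 shifted toward RAHS-14 and 1 toward Vagad. Selenium-binding protein 1, chosen after its values were seen, was separated toward Vagad and shifted toward RAHS-14: it gave 1120, 1997 and 2311 against 423, 400 and 506 under drought, and 1619, 1559 and 1574 against values under 16 in watered RAHS-14. Squalene monooxygenase, of sterol synthesis, gave 3457, 3012 and 9167 in droughted Vagad against 2698, 2526 and 2396 in droughted RAHS-14. Its watered values were 10746, 8942 and 8254 in Vagad and 32.8, 24.6 and 37.7 in RAHS-14, a 297-fold difference. Under drought replicate 3 was 3.61-fold higher (adjusted p = 0.0038), while replicates 1 and 2 lay close above the RAHS-14 range. An unnamed probe set that the study also took to PCR gave 563, 878 and 65.3 against 112, 113 and 130 under drought and 1424, 1319 and 1358 against 76.1, 76.6 and 104 when watered.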

How the data were processed

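RNA of whole roots was hybridized to 12 Affymetrix Cotton Genome arrays, 3 for each genotype and watering. The values are probe set intensities that, per the labels, the authors made with the MAS5 algorithm, and the deposited table holds them on a linear scale with no depth, so the number of arrays limits the precision. The methods name GCOS with scaling to one target per array, and state that the expression analyses used filtered RMA values, which were not used here. No version of MAS5 is given in those sources.

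From the 24132 probe sets 103 controls were left out. Values under 16 were raised to 16 and log2 was taken. limma 3.58.1 (R 4.3.3), first tested on simulated data, was fitted to the groups with Benjamini-Hochberg adjustment over 24029 probe sets, a call needing an adjusted p under 0.05 and 2-fold. A probe set was separated where the nearest droughted arrays of the genotypes were 2-fold apart. Replicate 3 of droughted Vagad was tested in 10 arrays, without replicates 1 and 2, and the interaction in 12 and in 10. P-values measure the spread between the arrays within groups. For replicate 3 alone and for the interaction in 10 arrays, the spread within droughted Vagad is not measured and is taken from the other groups. Those p-values therefore do not show how droughted Vagad roots vary.

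Names (677 probe sets) came from the study's supplementary gene lists, chosen by its authors on these samples, and from the Arabidopsis loci it prints; 1 annotation column filled down over rows was not used, and squalene monooxygenase is named as in the text of the study. Named in the report are the 12 widest named gaps in each direction. Up to 4 members of each of 18 lists, with those that went the other way, are named too. Also given are 2 unnamed probe sets in each direction, several of the PCR probe sets, and those said to be added after their values were seen. Members and lists were chosen with earlier results of these data known. The labels and the methods describe the withholding of water differently. The study's own fold changes were not used.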

Additional observations from a re-analysis of the deposited data

Results flagged for a closer look

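The genotype difference of 3 named probe sets changed between watering and drought in the fit of all 12 arrays. Squalene monooxygenase shifted toward RAHS-14 under drought by a log2 interaction of -7.36 (adjusted p = 0.0023), as its watered RAHS-14 values were the only ones under 50. The expansin-like gene EXLB1 shifted the same way by -6.79 (adjusted p = 0.0023), with watered Vagad the only high group. Meloidogyne-induced cotton 1 shifted toward Vagad by 6.82 (adjusted p = 0.0023), with droughted RAHS-14 under the floor of 16. In the 10 arrays without Vagad replicates 1 and 2 the interactions were -6.36, -5.78 and 5.77. Control probe sets for transcripts that cotton lacks, which enter no comparison, reached 689 on droughted Vagad replicate 1 and 702 on replicate 2, against at most 15.8 on the other 10 arrays.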

How the results depend on the processing

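Between the droughted genotypes, limma called 0 probe sets each way in the 6 arrays, and 74 toward Vagad and 53 toward RAHS-14 with all 12 arrays in one fit. The methods' t-test, run here on the deposited values and not on RMA values, gave 739 and 494 at their unadjusted threshold and 1 and 2 after Benjamini-Hochberg adjustment, limma without adjustment 2003 and 626, a floor of 64 gave 2 toward RAHS-14, and replicate 3 alone 472 and 560. Leaving out 1 array gave 0 to 7120 calls toward Vagad and 0 to 2167 toward RAHS-14, both highest without Vagad replicate 3. Of the separated probe sets, 224 toward Vagad became 144 after quantile normalization, 126 with a common median, 75 with a floor of 64, 908 with a floor of 1, 77 among probe sets above the median level, 3907 with any gap and 16 with a gap of 4-fold. The 152 toward RAHS-14 became 430 with a common median, 2473 with any gap and 14 with a gap of 4-fold. Leaving out 1 array gave 291 to 7670 and 162 to 1965. Of the main 224 and 152, 82 and 101 were shared with quantile normalization, 57 and 148 with a common median. With replicate 3 alone, a floor of 64 gave 275 and 350 calls. Separated probe sets called in the same direction under watering numbered 17 and 26, 7 and 4 with a replicate block, and 10 to 14 and 14 to 22 with 1 watered array left out. The interaction in 12 arrays gave 2 and 5 probe sets, 627 and 436 without Vagad replicates 1 and 2, 11 toward RAHS-14 with a common median and 1 toward Vagad with a replicate block; the alternatives of the interaction and of replicate 3 alone were chosen after seeing the data. Of the 94 named probe sets on which the alternatives were run, SKU5 similar 5 turned direction, from a log2 difference of 1.67 to -0.04 after quantile normalization. The cause of these changes was not tested. Replicate numbers shared between genotypes did not pair the arrays, since same-numbered deviations correlated at -0.031 to 0.015, and the replicate block left the droughted calls at 0. With 3 arrays a group, 2 of them with a raised background in droughted Vagad, low transcripts in those arrays are not measured apart from background.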
